A study of Mus musculus with 2 samples.

Results

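Dense clusters of H3K4me3 peaks away from annotated gene starts were described in MEL cells, a mouse erythroleukaemia line that is immortalized and whose cells resemble early red cell precursors. The members were chosen by position in the list of replicated peaks on mm10, chromosomes 1 to 19. A peak was called non-promoter where no GENCODE M21 transcript start of any gene type lay within 2000 bp, such peaks were chained across gaps of up to 5000 bp, and chains of 4 or more were kept. Of 36215 replicated peaks, 14661 were non-promoter (40.5%) and formed 9705 chains. The rule kept 369 chains (3.80%), which held 1716 peaks, or 11.7% of the non-promoter peaks and 4.74% of all replicated peaks. The study has 1 group of 2 biological replicates, ChIP-seq libraries made with an antibody against H3K4me3 from the same named sample of the line, with no treatment and no second condition, each called against a control. Since 1 cell sample is named for both, the spread between the lists may be technical. The values are peak lists without read counts, so depth and the precision it gives are unknown. Because the peak positions chose the members, counts and shares below are descriptions and carry no test.

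H3K4me3 is histone H3 carrying 3 methyl groups on lysine 4, and it marks active and poised promoters. Enhancers typically carry more mono- than trimethylation at the same lysine, but strong enhancers and unannotated promoters can both give H3K4me3 peaks, so a cluster of such peaks away from a known start is a candidate enhancer cluster and no more than that. In red cell precursors, enhancers and gene starts are bound by the factors Gata1, Tal1 and Klf1, often with the adaptors Lmo2 and Ldb1, and the Friend virus, which gives rise to erythroleukaemia in mice, does so in part by integrating beside Spi1 or Fli1. Genes for tRNAs are transcribed by RNA polymerase III from promoter elements inside the gene, box A and box B, and active ones lie between nucleosomes that carry H3K4me3.

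Sequences are shown for 2 kinds of cluster that the values below turn on, those nearest to blood transcription factor genes and those at tRNA genes; both sets were picked after their values were seen. All are from the RefSeq sequence of GRCm38, the build called mm10. The 3 windows are 300 bp on the plus strand around the summit of the strongest peak of the cluster. The first is chr9:32560029-32560328, upstream of Fli1, and its capitals mark the only match to any blood factor motif searched, an NF-E2 element at bases 30 to 39. The second, chr2:103894125-103894424, lies upstream of Lmo2 and held no match. The last, chr10:42270603-42270902, lies in an intron of Foxo3. Its capitals mark GATA elements at bases 7 to 12, 16 to 21 and 70 to 75. They also mark an ETS element at bases 189 to 194. These windows do not stand for the other peaks of their clusters. With peaks numbered by position, windows of peaks 1 and 3 near Lmo2 and of peak 2 near Fli1 held a GATA element. In the Foxo3 cluster, the windows of peaks 2, 3 and 4 held none.
Fli1 cluster: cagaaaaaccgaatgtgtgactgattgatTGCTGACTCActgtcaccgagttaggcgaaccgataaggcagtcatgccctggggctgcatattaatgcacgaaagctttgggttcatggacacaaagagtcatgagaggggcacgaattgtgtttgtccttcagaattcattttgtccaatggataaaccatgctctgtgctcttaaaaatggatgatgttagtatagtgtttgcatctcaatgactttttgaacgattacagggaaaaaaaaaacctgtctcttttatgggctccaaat
Lmo2 cluster: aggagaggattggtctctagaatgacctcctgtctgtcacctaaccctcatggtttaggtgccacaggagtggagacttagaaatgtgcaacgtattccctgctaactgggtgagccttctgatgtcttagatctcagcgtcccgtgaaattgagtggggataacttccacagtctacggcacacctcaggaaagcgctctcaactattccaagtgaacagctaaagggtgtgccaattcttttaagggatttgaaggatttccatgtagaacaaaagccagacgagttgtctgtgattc
Foxo3 cluster: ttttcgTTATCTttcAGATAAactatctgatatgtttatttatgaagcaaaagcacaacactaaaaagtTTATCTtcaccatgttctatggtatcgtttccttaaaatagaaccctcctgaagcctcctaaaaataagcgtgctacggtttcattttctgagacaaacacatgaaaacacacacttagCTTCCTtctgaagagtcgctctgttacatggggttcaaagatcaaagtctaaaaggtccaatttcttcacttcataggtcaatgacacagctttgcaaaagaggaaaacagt

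The 2 other sequences are whole tRNA genes inside clusters with many peaks, with box B in capitals, each read along its own gene. They are n-TFgaa6 (tRNA-Phe, chr19:12002236-12002308, plus strand) and n-TNgtt12 (tRNA-Asn, chr3:96497781-96497854, plus strand).
n-TFgaa6: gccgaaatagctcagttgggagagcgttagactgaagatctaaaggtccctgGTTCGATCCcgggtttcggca
n-TNgtt12: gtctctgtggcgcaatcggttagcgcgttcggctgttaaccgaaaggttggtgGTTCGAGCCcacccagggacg
In both, box B fits the searched letters GTTCGANNC, as GTTCGATCC and GTTCGAGCC, although the rest of the genes differs. The letters searched for box B were GTTCGANNC and GTTCAANNC on both strands, and 354 of the 386 RefSeq tRNA genes of chromosomes 1 to 19 held one (91.7%).

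Most clusters were short and close-packed. The chains held 1 peak in 6406 cases, 2 in 2251 and 3 in 679, and the clusters held 4 peaks in 232 cases, 5 in 83, 6 in 26 and 7 or more in 28, up to 12. Their spans ran from 1193 to 23447 bp with a median of 5357 bp and quartiles of 3533 and 7397 bp, and peaks covered a median of 46.5% of the span. Of the 1347 gaps between neighbouring peaks in a cluster, the median was 229 bp, and 977 (72.5%) were no wider than 1000 bp. When peaks within 1000 bp of each other were joined, 112 clusters became 1 region (30.4%), 163 became 2, 77 became 3, 15 became 4 and 2 became 5. So 74.5% of the clusters came down to 1 or 2 regions, listed as several narrow peaks. When all peaks of the list were joined that way before the rule was applied, 14 clusters remained, of which 2 lay at tRNA genes.

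**Figure D1:**
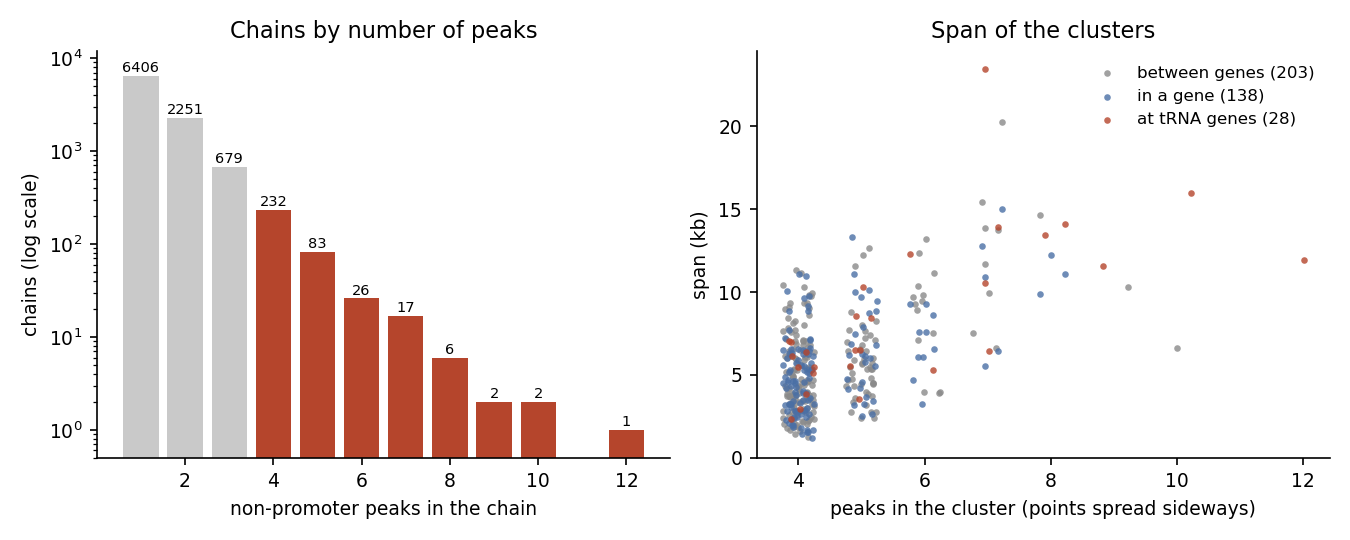
Left, number of chains (log scale) against the non-promoter peaks each holds, with the 369 clusters of 4 or more in red. Right, span in kb against peaks per cluster, coloured by place; the longest, 23447 bp, and the fullest, with 12 peaks, are both at tRNA genes.

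The 14 clusters that remained had their peaks in 4 or more separate regions. The widest lay on chromosome 13, 28160 bp from Gpx5, a glutathione peroxidase gene, and spanned 23447 bp with 6 tRNA genes. The next by number of regions lay 14333 bp upstream of Actb, the cytoplasmic actin gene, at chr5:142921087-142936512, and had 7 peaks in 5 regions with a highest signal value of 14.5. Others lay upstream of Smndc1, a splicing factor gene (7 peaks over 20250 bp), near F11r, a junctional adhesion molecule (6 peaks over 13226 bp), and inside Zeb2, a zinc finger repressor (11090 bp). None of the 14 had a gene of the 6 erythroid lists, described below, as host or nearest gene.

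At the limit of the rule, clusters with wide gaps were those near Slc1a3 (5000 bp) and in Zc3hav1 (4982 bp). Chains of 3 peaks lay just outside it, with the fourth peak 5025 bp away in Pde4d, 5043 bp away near Bahcc1 and 5078 bp away near Trim27.

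Cluster peaks resembled the other non-promoter peaks more than promoter peaks. Their median width was 407 bp, against 370 bp in the 12945 other non-promoter peaks, and the 21554 promoter peaks had 890 bp. The signal value, the authors' own score of peak strength, had a median of 4.28 in cluster peaks and 4.61 in other non-promoter peaks, and 9.73 in promoter peaks. A signal value above the promoter median was found in 116 cluster peaks (6.76%) and in 1236 other non-promoter peaks (9.55%). Around the summits of cluster peaks, GC content was 45.7% and the observed to expected CpG ratio 0.278 (medians), against 45.3% and 0.280 in other non-promoter peaks; promoter peaks had 54.0% and 0.587. In signal value, GC and CpG ratio the medians of cluster peaks lay far closer to those of other non-promoter peaks than to those of promoter peaks.

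The highest signal value per cluster had a median of 7.08, below the promoter median of 9.73, and ran from 2.999 to 22.2. It passed the promoter median in 96 clusters (26.0%); being the highest of 4 or more peaks, it is not comparable with the share of single peaks. The top value belonged to a cluster upstream of Otp, a homeobox gene of hypothalamic neurons that had no peak at its start. Its 4 peaks had signal values of 2.14, 3.10, 22.2 and 17.7, so a strong pair stood beside 2 weak peaks. The next were near F11r (19.4), Dnajc11, a mitochondrial co-chaperone (19.4), Rack1, a ribosome-bound scaffold (18.6), and Pik3r1, the regulatory subunit of PI3-kinase (18.5). In the Otp cluster the highest value was 16.5 in the replicate 1 list and 27.9 in the replicate 2 list, each on the scale of its own list.

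The replicate lists held most cluster peaks. A peak was found in both lists for 1543 cluster peaks (89.9%) and for 11483 other non-promoter peaks (88.7%), but the replicated list was derived from these lists, so this is no separate support. Every peak was found in both lists in 234 clusters (63.4%). When the rule was applied to each list alone, the replicate 1 list gave 1060 clusters and the replicate 2 list 526, and 270 of the 369 (73.2%) were overlapped by clusters of both. A peak of the replicate 1 list that itself reached to within 2000 bp of a start overlapped 22 cluster peaks in 16 clusters, and in replicate 2 it was 2 peaks in 2 clusters. Q-values above 0.05 were listed for 60 cluster peaks (3.50%) and 372 other non-promoter peaks (2.87%).

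By place, 28 clusters lay at tRNA genes, with at least 1 RefSeq tRNA gene inside or within 500 bp of the span (7.59%, 162 peaks). Another 138 overlapped a protein-coding gene at least in part (37.4%, 627 peaks) and 203 lay between genes (55.0%, 927 peaks). Summits of 574 cluster peaks were intronic (33.4%), 34 exonic (1.98%) and 1108 outside protein-coding genes (64.6%), against 39.4%, 3.48% and 57.1% of the other non-promoter peaks.

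The clusters at tRNA genes held a median of 5 peaks each, against 4 in the other clusters. They made up 5 of the 10 with most peaks and 9 of the 28 with 7 or more (32.1%). Over the 28, the median span was 6770.5 bp and the median highest signal value 9.31, against 5282 bp and 6.997 in the 341 clusters without tRNA genes. All 28 had 4 or more of their peaks in each replicate list, against 336 of all 369 clusters (91.1%) in replicate 1 and 317 (85.9%) in replicate 2, and 158 of their 162 peaks were in both (97.5%). Since clusters at tRNA genes held more peaks, 4 found peaks and a high maximum were easier to reach. The 369 include the 28, and these differences were not adjusted for the number of peaks. On chromosome 13 there were 11 of the 28, on chromosome 3 there were 4 and on chromosome 1 there were 3. Between 1 and 9 tRNA genes lay at each, and 23 clusters had 2 or more.

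The fullest of all 369, at chr19:12001804-12013724, had 12 peaks over 11921 bp and 8 tRNA genes for Arg, Leu, Lys, Phe and Val. Its nearest protein-coding gene, Olfr1423, an olfactory receptor gene without a peak at its start, began 23016 bp away. Signal values of its 12 peaks ran from 3.82 to 9.26, and the highest per list was 9.17 in replicate 1 and 10.3 in replicate 2. A cluster on chromosome 13 had 10 peaks and 9 tRNA genes, lay 4764 bp upstream of Trim27, a RING finger gene, and reached a signal value of 11.6. On chromosome 3, a cluster of 9 peaks and 5 tRNA genes lay 21393 bp upstream of Hfe2, the haemojuvelin gene, which had no peak at its start. Both clusters of 8 peaks upstream of Zfp184, a zinc finger gene of chromosome 13, had 7 tRNA genes each.

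**Figure D2:**
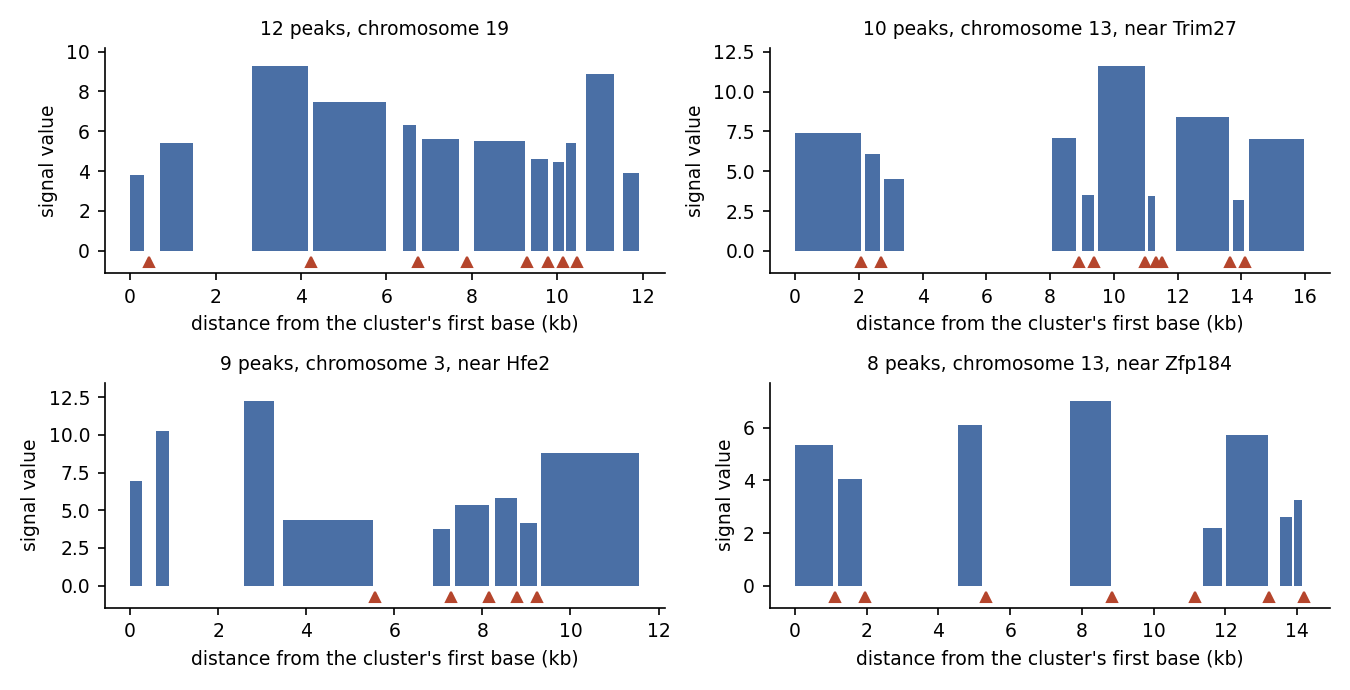
Peaks of 4 clusters at tRNA genes, drawn to scale by distance from the cluster's first base (kb), with the height giving the signal value in the replicated list. Triangles mark the first base in the genome of each tRNA gene; most sit at the edge of a peak or between 2 peaks, as in the cluster of 12 peaks on chromosome 19.

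Peaks flanked the tRNA genes and mostly did not cover them. Of 386 RefSeq tRNA genes on chromosomes 1 to 19, 258 (66.8%) had a replicated peak within 500 bp, and 110 (28.5%) lay at a cluster. Among these 110, 109 had a peak within 500 bp, a nearness that the 500 bp limit for these clusters favours; 20 were overlapped by a peak and 90 were not. Of the 162 summits, 115 (71.0%) lay within 500 bp of the first base of a tRNA gene, the median distance was 217 bp, and 0 lay inside one. Within 1000 bp, 72 summits lay upstream of the tRNA gene and 64 downstream. A peak overlapped a tRNA gene in 21 of the 1716 cluster peaks (1.22%) and in 14 of the 12945 others (0.108%). The tRNA genes are a family of near-identical copies, and the sources used here do not say how reads that match several places were treated, so the part of mapping in these gaps was not tested.

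**Figure D3:**
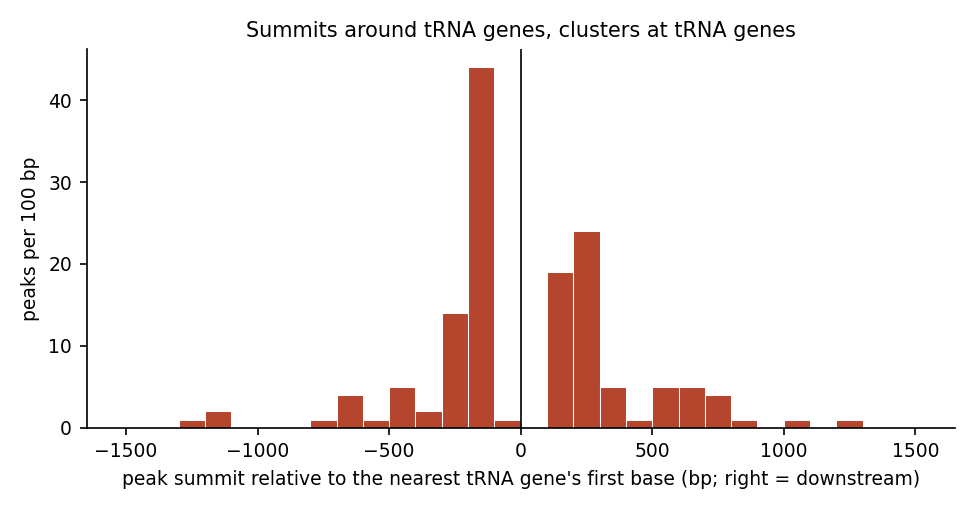
Number of peak summits per 100 bp against their distance from the first base of the nearest tRNA gene, along the direction of that gene, in the 28 clusters at tRNA genes. Summits within 1500 bp are drawn; they form a peak on each side of the gene, 72 upstream and 64 downstream within 1000 bp, with none inside a tRNA gene.

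GENCODE M21 as used lists no nuclear tRNA gene, so tRNA starts did not count in the rule; 273 of the 386 tRNA genes lay over 2000 bp from any GENCODE start, and 174 of these had a replicated peak within 500 bp. RefSeq starts showed the same kind of gap for other genes: 81 clusters (22.0%) had a RefSeq transcript start within 2000 bp of a peak, as did 10.7% of cluster peaks and 8.06% of other non-promoter peaks. The cluster of 9 peaks beside Zfp217, a zinc finger factor gene, is one of them, with a RefSeq start 16 bp away and a promoter peak 88 bp away. With RefSeq starts and tRNA genes also taken as starts, 283 of the 369 clusters (76.7%) were still overlapped by a cluster. A promoter peak lay inside the span of 6 clusters and 1 to 1000 bp from 37 more.

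The 141 clusters with a protein-coding host gene had 135 genes as hosts, and with the nearest genes added, 358 genes were host or nearest, which is 1.72% of 20780 protein-coding genes and 2.57% of the 10687 that had a peak within 1000 bp of a start. The nearest gene was marked in that way for 291 clusters (78.9%), against 51.4% of all protein-coding genes. The first share counts clusters and the second counts genes. The share for nearest genes of other non-promoter peaks is not given here, so this is not read as particular to the clusters. Leaving out clusters at tRNA genes, host genes were long, with a median length of 107186 bp against 17633.5 bp for all protein-coding genes and 23230 bp for marked ones. The rule itself favours long hosts, because each peak of a cluster must lie over 2000 bp from any start. No conclusion is drawn from this length. The middle of the cluster lay at a median of 37.2% of the host's length from its 5′ end. The nearest start was at a median distance of 13752 bp, and among clusters between genes 127 lay upstream of that start and 76 downstream.

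The fullest clusters without tRNA genes stood by genes of varied function. One of 10 peaks at chr5:136622115-136628759 lay 54625 bp upstream of Cux1, a homeodomain factor gene, and packed them into 6645 bp with signal values of 2.59 to 9.05. The 9 peaks upstream of Zfp217 spanned 10325 bp, and their signal values were highest at the end next to the gene, at 15.3, 10.7 and 8.67, against 4.23 to 7.16 in the other 6. Clusters of 8 peaks lay upstream of Fut8, which codes for a fucosyltransferase, in Nt5c2, a cytosolic nucleotidase gene, and in Homer1, a scaffold gene of synapses. A cluster of 7 peaks in Pitpnc1, a phosphatidylinositol transfer protein gene, spanned 15009 bp with a promoter peak inside it. Neighbouring clusters within 100000 bp of each other formed 38 pairs, and 26 genes were the nearest gene of 2 or more clusters.

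Lineage genes were few among the clusters in number, though above the share of all genes in some lists. Over 6 lists of erythroid genes, 9 of 108 genes (8.33%) were host of or nearest to a cluster. The share was 1.72% of all protein-coding genes and 2.57% of marked ones, and 96 of the 108 had a peak at a start. With peaks limited to −log10 q of at least 5, 1 erythroid gene was left (0.926%), against 0.621% of all and 0.954% of marked genes under that limit. With peaks within 1000 bp joined it was 0 erythroid genes, against 0.0722% of all genes, and from 5 peaks it was 3 (2.78%), against 0.645% of all and 0.992% of marked genes. Over 4 lists of stem, megakaryocyte, myeloid and lymphoid genes it was 5 of 71 (7.04%), of which 19 were marked. Over 3 lists of neuronal, muscle and liver genes it was 0 of 58, of which 12 were marked. Since the share of all genes is only 1.72%, a 0 in lists of this size is not read as a lack of clusters. By list, transcription factors had 2 of 23, Friend erythroleukaemia genes 2 of 8, red cell membrane and effector genes 4 of 31, globins 1 of 10, haem and iron genes 0 of 22 and erythropoietin signalling genes 0 of 14. The listed genes on chromosome X, among them Gata1 and Alas2, lie outside the rule.

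**Figure D4:**
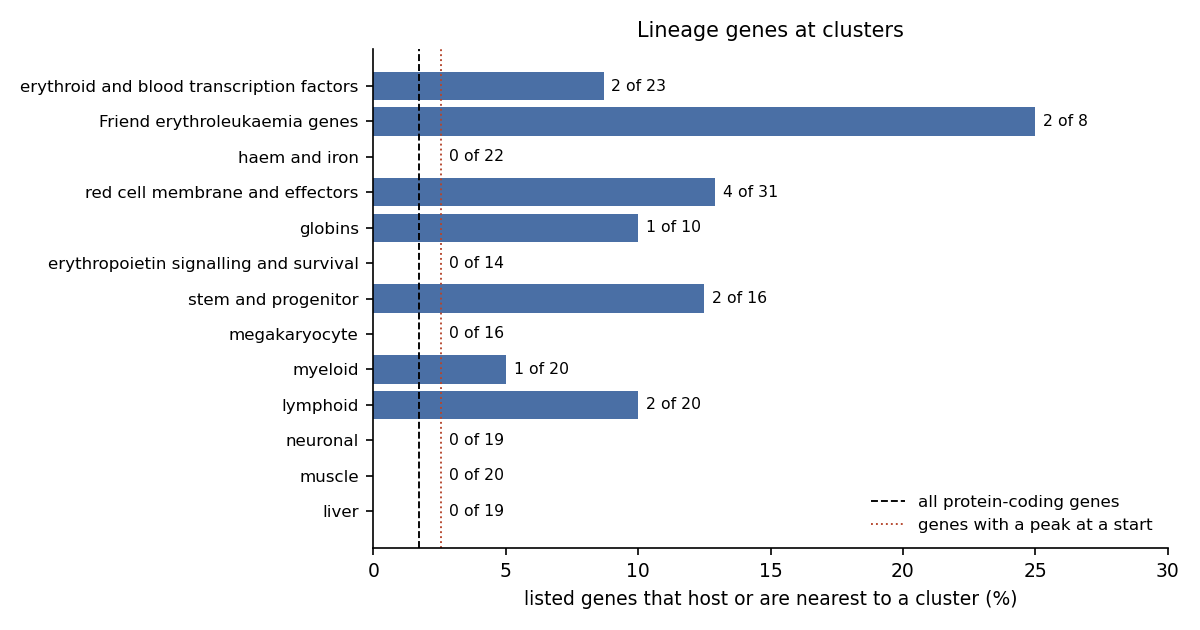
Percent of the genes of each list that host a cluster or are nearest to one, with counts beside the bars. The dashed line is the share of all protein-coding genes (1.72%) and the dotted line that of genes with a peak at a start (2.57%); 7 of the 13 lists have at least 1 such gene, and the haem and iron list has 0 of 22.

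Of the transcription factor genes, Lmo2 and Foxo3 had a cluster. Lmo2, the LIM adaptor of the Gata1 and Tal1 complex, was the nearest gene to 4 peaks at chr2:103893283-103896997, 60989 bp upstream of its start, which formed 1 region after joining. Their signal values were 3.85, 6.95, 4.64 and 2.62 in order of position; all 4 were found in replicate 1 and 3 of them in replicate 2, where the last was not. A RefSeq transcript start lies within a peak of this cluster. The Foxo3 cluster, in an intron of this forkhead factor gene of oxidative stress and red cell maturation, had 4 weak peaks of 4.16, 2.64, 3.86 and 3.37 over 2007 bp, 4064 bp from the start. A promoter peak lay 112 bp from it, and 2 of its 4 peaks were missing from the replicate 2 list. In replicate 1 the last 2 peaks were overlapped by a listed peak of 13.5 that itself reached to within 2000 bp of a start. The Foxo3 cluster thus lies beside a promoter peak, whereas the nearest promoter peak to the Lmo2 cluster was 60095 bp away.

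Of the Friend erythroleukaemia genes, Fli1 and Myb had a cluster between genes. The cluster at chr9:32555538-32563270 lay 12677 bp upstream of Fli1, the ETS factor gene that Friend virus insertions activate, with 4 peaks over 7733 bp at signal values of 4.25, 2.21, 4.70 and 3.89. The strongest peak was 5.43 in the replicate 1 list, where it was the highest of the cluster, and 4.25 in the replicate 2 list, where the last peak was highest at 4.90. All 4 were in both lists. The second peak is at the edge of the list, with a −log10 q of 0.88. Myb, a factor gene of blood progenitors, was nearest to a cluster 57321 bp upstream of its start, with 4 peaks of 3.86, 2.89, 2.83 and 2.95 over 4907 bp, all in both lists. A GATA element stood in 3 of its 4 windows, while in the Fli1 cluster only the window of the second peak held it. Of all cluster windows 32.2% held the element, and of other non-promoter windows 34.6%. The 4 windows of 1 locus give no share to set beside these. Repeats masked in the reference made up 8.67 to 50.7% of the Myb windows. Among clusters of red cell genes, GATA stood in 2 of 6 windows in Car1 and 2 of 5 upstream of Cd47. It was in 1 of 6 near Cd24a and in none near Car2. The first and last windows inside Cd47 and the first and second at Hbb-bt also held it. A RefSeq start lies 1809 bp from the Myb cluster.

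Among red cell membrane and effector genes, Car1, Car2, Cd47 and Cd24a had clusters. The carbonic anhydrase gene Car1 held 6 weak peaks in an intron, from 2.61 to 3.74 over 4696 bp, 5 found in each replicate list, and a promoter peak lay 94 bp away. Its neighbour Car2, another carbonic anhydrase gene, had 4 peaks from 5914 bp upstream of its start, with signal values of 3.08, 3.83, 2.68 and 8.12, of which 2 were in both lists. The last of these, 1152 bp wide, had 8.88 in replicate 1 and 7.98 in replicate 2. Cd47, a surface protein that restrains phagocytosis of red cells, was the nearest gene to a cluster of 5 peaks 24384 bp upstream and the host of another of 4 peaks. A RefSeq start lies within a peak of the upstream one, where a peak 2355 bp wide with a signal value of 6.12 stood beside 4 weaker ones of 2.00 to 3.88. The peak of 2.00 had a −log10 q of 0.832 and was missing from the replicate 2 list. The cluster inside Cd47 had 2.97, 8.20, 4.54 and 4.64, and all 4 were in both lists. Cd24a, a surface glycoprotein of developing blood cells, was nearest to 6 peaks 61551 bp from its start, where 1 peak of 9.50 and a width of 1702 bp stood among 5 of 1.86 to 4.75. The peak of 1.86 had a −log10 q of 0.643 and was missing from the replicate 2 list.

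**Figure D5:**
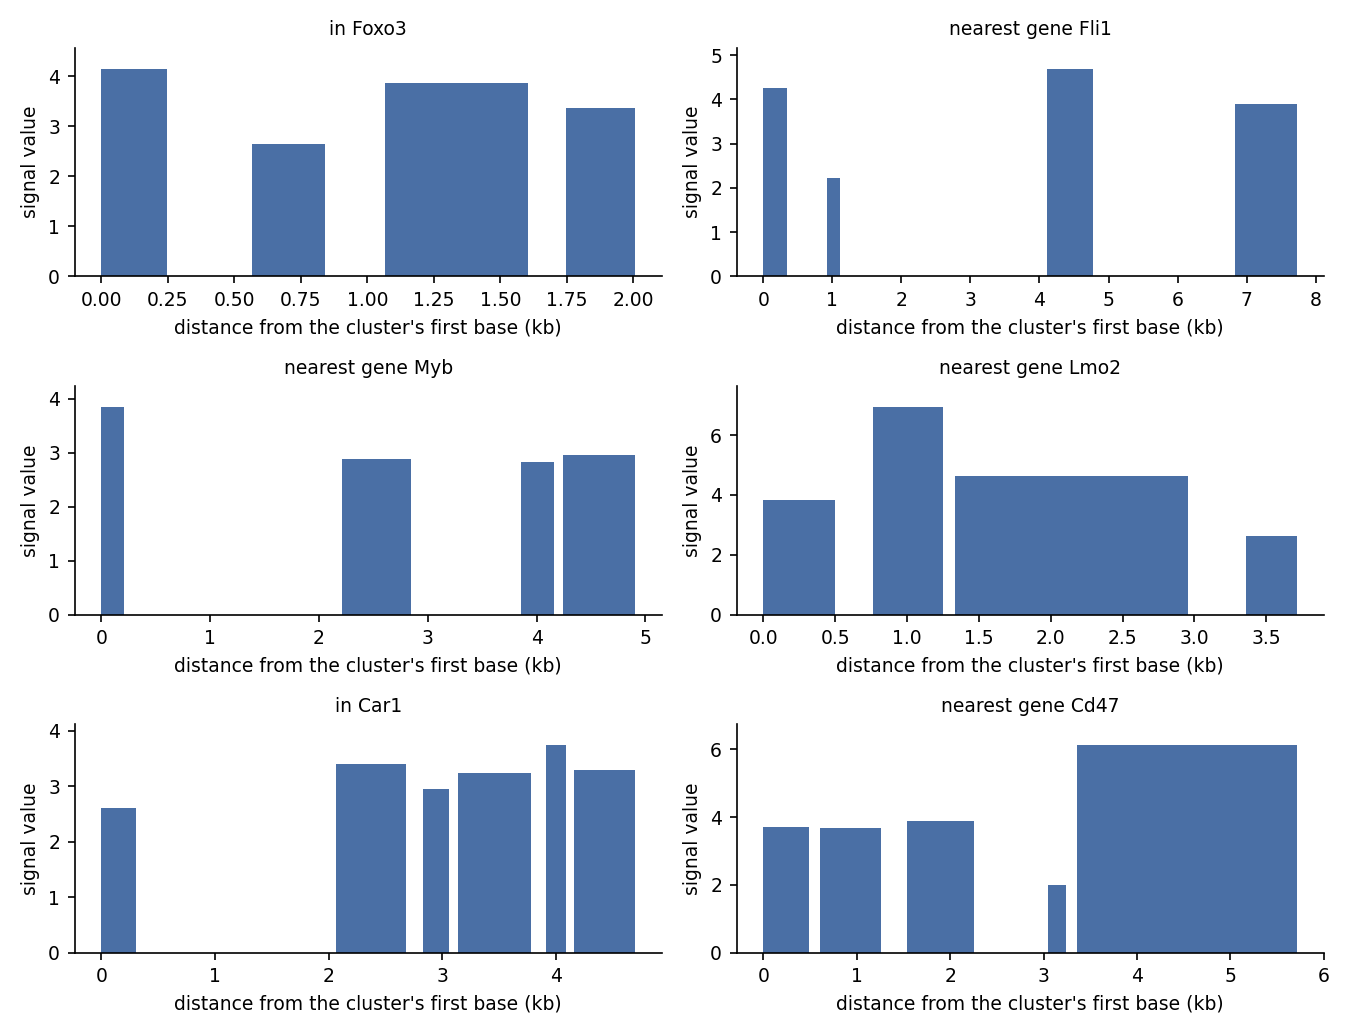
Peaks of 6 clusters at listed erythroid genes by distance from the cluster's first base (kb) in genome order, with the height giving the signal value in the replicated list; the axes differ between panels. Among these 6 clusters, in or nearest to Foxo3, Fli1, Myb, Lmo2, Car1 and Cd47 (the upstream one), the strongest peaks are 6.95 near Lmo2 and 6.12 near Cd47, and those in Car1 do not pass 3.74; the clusters near Cd24a and Car2 and inside Cd47, which had stronger peaks, are not drawn.

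The globin list had 1 gene with a cluster. The 4 peaks at chr7:103808534-103811563 lay 2433 bp downstream of the start of Hbb-bt, an adult beta globin gene, with signal values of 3.84, 2.68, 2.78 and 3.58, all in both lists. A promoter peak was 862 bp away. The cluster overlapped a RefSeq functional element that enhances an adult beta globin promoter when transfected into MEL cells. In all, 12 clusters (3.25%) overlapped a RefSeq enhancer, and 8 of these are enhancers of the VISTA collection, which are scored in mouse embryos. By peaks it was 16 cluster peaks (0.932%) and 76 others (0.587%). The cluster upstream of Btg2, an antiproliferative gene, was picked here after its value was seen because its element is recorded as an erythroid enhancer in transfected cells. It had 4 peaks at chr1:134092652-134096416 with a highest signal value of 10.96, and a RefSeq start lies 140 bp away.

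Of the other blood lists, Meis1 and Erg of stem cells, Fcgr3 of myeloid cells, and Cd3d and Ptprc of lymphoid cells had a cluster. That at Fcgr3 is a cluster of 7 peaks with 5 tRNA genes. The one in Erg, a gene with no peak at its start, had 4 peaks up to 4.25, and the one in Ptprc, the CD45 gene, had 4 up to 6.62. Those near Meis1 and Cd3d reached 6.02 and 6.33. Clusters were thus found at genes of other blood lineages as well as at erythroid genes.

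Blood factor motifs had similar shares in cluster windows and in other non-promoter windows. The GATA element (AGATAA or TGATAA on either strand) stood in 32.2% of the 300 bp windows around cluster summits, in 34.6% of other non-promoter windows and in 16.2% of promoter windows. At least 1 window held it in 308 clusters and every window in 6, among them the cluster of 5 peaks upstream of Dnajc11. Each cluster has several windows, so a count of clusters with at least 1 match runs above the share of windows. No matching count for other non-promoter peaks is given here. Neither count is therefore read as a surplus of the element in clusters, whose window share was below that of other non-promoter windows. The composite element of CTG, any 8 bases and AGATAA stood in 0.291% of cluster windows and 0.533% of the others. ETS elements (AGGAAG) were in 36.1% of cluster windows and 40.3% of the others, RUNX elements (TGTGGT) in 22.6% and 20.3%, and CACC boxes (CCNCNCCC) in 27.3% and 25.8%. E-boxes (CAGCTG) were in 14.7% and 14.0%, and NF-E2 elements (TGCTGA, any base, TCA) in 0.816% and 0.919%. Box B was in 7.58% of cluster windows, 5.03% of other non-promoter windows and 5.23% of promoter windows. Within the windows of clusters at tRNA genes it was in 16.0%, and within those of clusters without tRNA genes in 6.69%. All were searched on both strands, the ETS and GATA matches can overlap other elements, and windows of 1 cluster share a locus.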

How the data were processed

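The 2 replicate H3K4me3 ChIP-seq libraries of MEL cells were available as peak lists on mm10: 1 per replicate, 1 pooled and 1 replicated, which the notes deposited with the samples say was derived from the other 3. The lists are narrowPeak, per the deposited notes. The signal value is a score that the authors gave each peak, without a stated definition, and the −log10 values of p and q were deposited beside it. The sources used here name no aligner, no peak caller and no rule of replication. A peak list on mm9 was not analysed here.

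Distances were measured from the peak edges to 141767 transcript starts of the GENCODE M21 annotation. Host was the protein-coding gene with the largest overlap with the span, which could be partial, and nearest the one with the closest start. Marked genes had a replicated peak no more than 1000 bp from a start. RefSeq for GRCm38, the same build, gave tRNA genes, further starts, enhancers and sequence. Overlap meant at least 1 bp. The members, the 13 gene lists, the motifs and the rule for naming clusters were chosen with earlier results of these data known. Named were the 10 clusters with most peaks, the 5 longest, the 5 with the strongest peak, all at genes of 6 erythroid lists, up to 2 from each other list, and those at the gap limit. Sequences follow that rule only in part, since windows of the fullest clusters gave way to tRNA genes. A few items that the rule names are not reported here. Of the listed genes, Tf was not found under that symbol.

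The chaining and distance steps were tested on simulated data. Calculations used Python 3.11.15, numpy 2.4.6, pandas 2.3.3, pysam 0.24.0 and matplotlib 3.10.9. Other gaps, peak minimums, start distances, start sets, q limits and lists were tried as alternatives.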

Additional observations from a re-analysis of the deposited data

Results flagged for a closer look

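Chromosome X lay outside the rule, but its peaks formed clusters when the same chaining was applied. Of its 1155 replicated peaks, 488 were non-promoter, and they gave 9 clusters, while chromosome Y gave 0. The clusters lay near Bcor, a transcriptional corepressor gene (6 peaks, highest signal value 11.9), Tsc22d3, a glucocorticoid-induced gene (5 peaks, 13.2), Las1l, a ribosome biogenesis gene (5 peaks, 11.03), Sash3, an adaptor gene of lymphocytes (5 peaks, 7.96), Tmem164 and 4930524N10Rik, and inside Gpc4, Pcyt1b and Arhgap6. None of these is a gene of the 6 erythroid lists.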

How the results depend on the processing

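The number of clusters depended on the settings: 369 became 568 with gaps of up to 10000 bp, 1048 from 3 peaks, 137 from 5 peaks, 128 with −log10 q of at least 5 and 14 with peaks within 1000 bp joined first. It was 248 with gaps of up to 2500 bp, and 446 at 1000 bp and 262 at 5000 bp from a start. With protein-coding starts only it was 479, and in the pooled list 513. With either replicate list alone it was 526 to 1060. The 1716 peaks in clusters became 1128 with gaps of up to 2500 bp and 2822 with gaps of up to 10000 bp. They became 3753 from 3 peaks, 788 from 5 peaks, 592 under the q limit and 58 with peaks joined. With 1 replicate list they were 2463 to 5303. Their share of non-promoter peaks, 11.7%, became 7.69% with gaps of up to 2500 bp, 19.2% with gaps of up to 10000 bp, 25.6% from 3 peaks, 5.37% from 5 peaks, 6.34% under the q limit, 0.576% with peaks joined and 13.5 to 23.8% with 1 replicate list.

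The median span, 5357 bp, was 3802.5 bp with gaps of up to 2500 bp, 9689.5 bp with gaps of up to 10000 bp, 3552.5 bp from 3 peaks, 6645 bp from 5 peaks, 5677 bp at 1000 bp and 5562 bp at 5000 bp from a start, 5770 bp with protein-coding starts only, 6142 bp under the q limit, 12795.5 bp with peaks joined, 5114 bp in the pooled list, 4566.5 to 4823 bp with 1 replicate list, and 5150 bp with RefSeq starts and tRNA genes added, a setting chosen after seeing the data. The share with a host gene, 38.2%, was 44.7% with gaps of up to 10000 bp, 44.2% at 1000 bp and 32.1% at 5000 bp from a start, 28.1% under the q limit, 21.4% with peaks joined and 40.3 to 47.9% with 1 replicate list. The share of erythroid genes with a cluster, 8.33%, was 21.3% from 3 peaks and 10.2 to 25% with 1 replicate list. The share of all genes, 1.72%, then rose too, to 4.73% and 2.44 to 4.72%. That of marked genes, 2.57%, rose to 7.02% and 3.53 to 7.19%. The erythroid share fell to 5.56% with RefSeq starts and tRNA genes added, 4.63% at 5000 bp from a start and 2.78% from 5 peaks. It was 0.926% under the q limit and 0% with peaks joined. Under these 5 settings in turn the share of all genes was 1.36%, 1.20%, 0.645%, 0.621% and 0.0722%.

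The GATA share, 32.2%, was 31.4% and 32.99% with gaps of up to 2500 and 10000 bp, 31.9% from 5 peaks, 32.6% and 32.7% at 1000 and 5000 bp from a start, 30.5% with protein-coding starts only, 27.2% under the q limit, 29.3% with peaks joined, 32.7% in the pooled list, 33.4 to 33.8% with 1 replicate list, 32.8% without clusters at tRNA genes and 33.4% with RefSeq starts and tRNA genes added, the last pair chosen after seeing the data. The causes of these shifts were not tested beyond the construction of each setting. No paired analysis was possible because the study has 1 group and no comparison between conditions. Depth is unknown, so an unlisted peak need not be an absent one.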
